A study of Mus musculus with 5 samples.

Results

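The 7 genes described here encode proteins that receive or convert steroid hormones. They are Esr1 and Esr2 (the estrogen receptors alpha and beta), Pgr (the progesterone receptor), Nr3c1 (the glucocorticoid receptor), Nr3c2 (the mineralocorticoid receptor), and Srd5a1 and Srd5a2 (the steroid 5-alpha reductases). They were chosen by symbol, and all 7 were found among the 32285 genes of the count matrices. Each was followed as unique molecular identifiers (UMIs, 1 per captured RNA molecule) in all 5 single-cell libraries and in cell types set by marker genes, with the share of its UMIs in epithelial and in stromal cells.

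The study asked how the baculum, the bone of the mouse penis, develops beside the bones of the limbs. Single cells were captured from 3 libraries of mouse penis taken 6 days after birth (Penis replicates 1 to 3), from 1 library of forelimb and from 1 library of hindlimb labelled as embryonic day 15, an age that the study's text does not give uniformly. The labels give every animal as C57BL/6N, while the study's text names C57BL/6J as its background strain. The mice were male, no added allele or agent is given for these libraries, and the penises were trimmed of prepuce to leave the glans. The labels do not tie a library to a mouse or litter, nor say how many embryos entered a limb library, so each p-value below measures only the spread between these libraries. Tissue and age differ together between penis and limb and cannot be told apart. The study's limits on cells also differ between them. With no such limits 4 of the 7 genes were called in stromal cells, as with them, beside 5107 of all 20347 genes tested. In epithelial cells 1 was then called in place of 2 (beside 1573 of 13464 genes). Over all cells together 3 were called in place of 4 (beside 5539 of 22429 genes). The forelimb and hindlimb were taken as a group of 2 and were not tested against each other. The study's methods do not say whether both limb libraries came from the same embryos, so they may share animals, and then the spread between them is not one between animals.

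Steroid hormones pass into the cell and bind receptors that then act on chromatin as transcription factors. Which cells respond depends on which receptors they hold and on enzymes that change the hormone before it binds. The 5-alpha reductases turn testosterone into dihydrotestosterone, and Srd5a2 is best known from the stroma of the genital tract and prostate, where loss of the human enzyme leaves the external genitalia undervirilized. Estrogen receptor alpha is also known from genital mesenchyme and from cartilage and bone, and the glucocorticoid receptor is found in nearly all cells.

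Positions are on mm10 (GRCm38) with the GENCODE vM21 annotation. Srd5a2 (ENSMUSG00000038541) is at chr17:74016955-74047916 on the minus strand and Srd5a1 (ENSMUSG00000021594) at chr13:69573449-69611442, also on the minus strand. Esr1 (ENSMUSG00000019768) is at chr10:4611593-5005614 on the plus strand, Esr2 (ENSMUSG00000021055) at chr12:76120419-76177259 on the minus strand, and Pgr (ENSMUSG00000031870) at chr9:8899833-8968611 on the plus strand. Nr3c2 (ENSMUSG00000031618) is at chr8:76899442-77245012 on the plus strand. The locus of Nr3c1 (ENSMUSG00000024431) is not described here. Srd5a1 shares its strand in part with the noncoding Gm17108 and lies within Nsun2, which is read on the opposite strand. Esr2 holds the pseudogene Gm7862, Srd5a2 overlaps the noncoding CT025731.1, and Nr3c2 overlaps small RNA genes and the noncoding Gm10649 on the opposite strand. How reads from such overlaps were counted is not given in the sources used here, so the counts of these 4 genes carry that uncertainty.

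The DNA just before the start is shown for Srd5a2, Srd5a1, Pgr and Esr1, the genes that differed between stromal and epithelial cells in penis (below). Each is 190 bases from RefSeq on GRCm38.p6, read 5′ to 3′ on the gene's strand, from 250 to 61 bases before an annotated start. Capitals mark matches on either strand to 5 short motifs: TATAAA (the TATA box), CCAAT (the CAAT box), GGGCGG (the GC box), and AGAACA or else AGGTCA (the sites that a single receptor of a steroid receptor pair binds).
Srd5a2 at chr17:74047921-74048110: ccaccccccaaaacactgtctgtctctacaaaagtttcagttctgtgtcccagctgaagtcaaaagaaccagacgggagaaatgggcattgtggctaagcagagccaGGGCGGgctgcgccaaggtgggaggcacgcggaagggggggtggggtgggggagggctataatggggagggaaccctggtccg
Srd5a1 at chr13:69611524-69611713: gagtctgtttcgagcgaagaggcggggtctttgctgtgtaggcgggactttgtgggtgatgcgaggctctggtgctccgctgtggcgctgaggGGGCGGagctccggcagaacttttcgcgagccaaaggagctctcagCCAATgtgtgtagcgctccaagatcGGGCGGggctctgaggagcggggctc
Pgr at chr9:8899583-8899772: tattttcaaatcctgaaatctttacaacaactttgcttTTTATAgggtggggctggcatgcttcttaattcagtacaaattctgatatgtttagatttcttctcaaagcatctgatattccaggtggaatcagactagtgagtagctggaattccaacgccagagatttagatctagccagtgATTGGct
Esr1 at chr10:4709908-4710097: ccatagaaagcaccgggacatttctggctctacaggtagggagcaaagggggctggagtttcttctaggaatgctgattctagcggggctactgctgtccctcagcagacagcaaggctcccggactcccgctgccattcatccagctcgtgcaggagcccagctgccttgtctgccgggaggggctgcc
The Srd5a1 window was the richest in CpG, with 15 CpG and 63.7% G or C, and overlapped an exon of Gm17108. It held GGGCGG at 157 and at 86 bases before the start and CCAAT at 111. The Srd5a2 window had 6 CpG and 60% G or C and 1 GGGCGG at 143 bases before the start. The Pgr window was poor in CpG (1 CpG, 37.9% G or C) and held the reverse complements of TATAAA at 212 and of CCAAT at 67. The Esr1 window, before the second of its annotated starts and inside the gene, had 6 CpG and none of the 5 motifs. Over the 32851 windows of this length in the table, 22.8% held GGGCGG, 26.7% CCAAT, 8.73% TATAAA, 12.7% AGAACA and 10.8% AGGTCA. The motifs AGAACA and AGGTCA were in none of the 4 windows, which says only that these letters are not there.

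The study's filter kept 5708 to 7085 cells per penis library and 20514 to 22057 per limb library, with medians of 8792 to 9909 and 5358 to 6057 UMIs per cell. A cell entered a gate when it held UMIs of at least 3 of that cell type's markers (4 for cartilage) and passed no other gate. Cells that passed the cartilage, bone, tendon or mural gate beside the stromal gate went to the former. These rules placed 81.3 to 88.4% of cells. Cells that passed any other combination of gates, 5.17 to 5.98%, were left out as mixed, and no doublet caller was run. Stromal cells were the largest gate (3523 to 4288 cells per penis library, 11104 to 11878 per limb library), and kept epithelial cells were few (234 to 361, against 167 and 205). With no cell filter the smallest epithelial gate held 479 cells in penis and 245 in limb. Epithelial levels below are those of kept cells unless stated, and the filter changed their number unequally. Median UMIs per epithelial cell were 4936 to 7609 in penis and 3366 to 3372 in limb. In the stromal and epithelial gates of every penis library all 8 markers were present in over 10% of cells, but in the penis cartilage gate and the limb mural gate 7 of 8 were, the other cartilage marker being in 0 to 3.31% of that penis gate's cells. Libraries shared 20 to 203 barcodes with each other.

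Levels are counts per 1000000 UMIs of a gate (CPM), summed over its cells in a library. They depend on transcript capture as well as on expression and are not compared between genes. A gene is called higher or lower where edgeR's quasi-likelihood test on these sums gave an adjusted p under 0.01 over all genes tested and a log2 fold difference beyond 1. In the stromal gate 4 of the 7 genes were called between penis and limb, Srd5a2 and Esr1 higher and Pgr and Nr3c2 lower, while 25.3% of all 20125 genes tested were called. In the epithelial gate 2 of the 5 that passed the filter on low counts were called, Esr1 higher and Nr3c1 lower, against 11.9% of all 11583 genes. Srd5a2 and Esr2 were too sparse in epithelial cells to be tested.

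The split between Esr1 and Srd5a2 on the one hand and Nr3c2 on the other was also seen in the mural, cartilage and tendon gates. These gates come from the same libraries as the stromal gate and hold cells that also passed it, so they are not independent of it. The Nr3c2 calls in mural and cartilage cells depended on the setting (below). Esr1 was called higher in penis in the endothelial, mural, cartilage and tendon gates, Srd5a2 in the mural, cartilage and tendon gates. Nr3c2 was called lower in the mural, cartilage and tendon gates and higher in the endothelial gate. By gate, 3 of 4 tested genes were called in endothelial cells (12.2% of all genes), 4 of 6 in mural cells (15.4%), 3 of 5 in cartilage (17%) and 3 of 5 in tendon (15.6%). None of the 2 tested was called in leukocytes (23.7%) and none of the 3 tested in glial cells (15.3%), by edgeR or by DESeq2. In leukocytes both had an unadjusted p under 0.05 by edgeR, and in glial cells 2 of the 3 had. The share of all genes under that looser limit is not given here, so these counts say nothing particular to the members. With no filter on low counts, edgeR tested all 7 in leukocytes and called 1, beside 3400 of all 22545 genes tested. Over all kept cells together the 4 calls of the stromal gate were made again, against 24.5% of all genes, a value that also holds differences in the mix of cells. With no cell filter the Pgr difference in that fit was -0.85 and was not called.

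**Figure D1:**
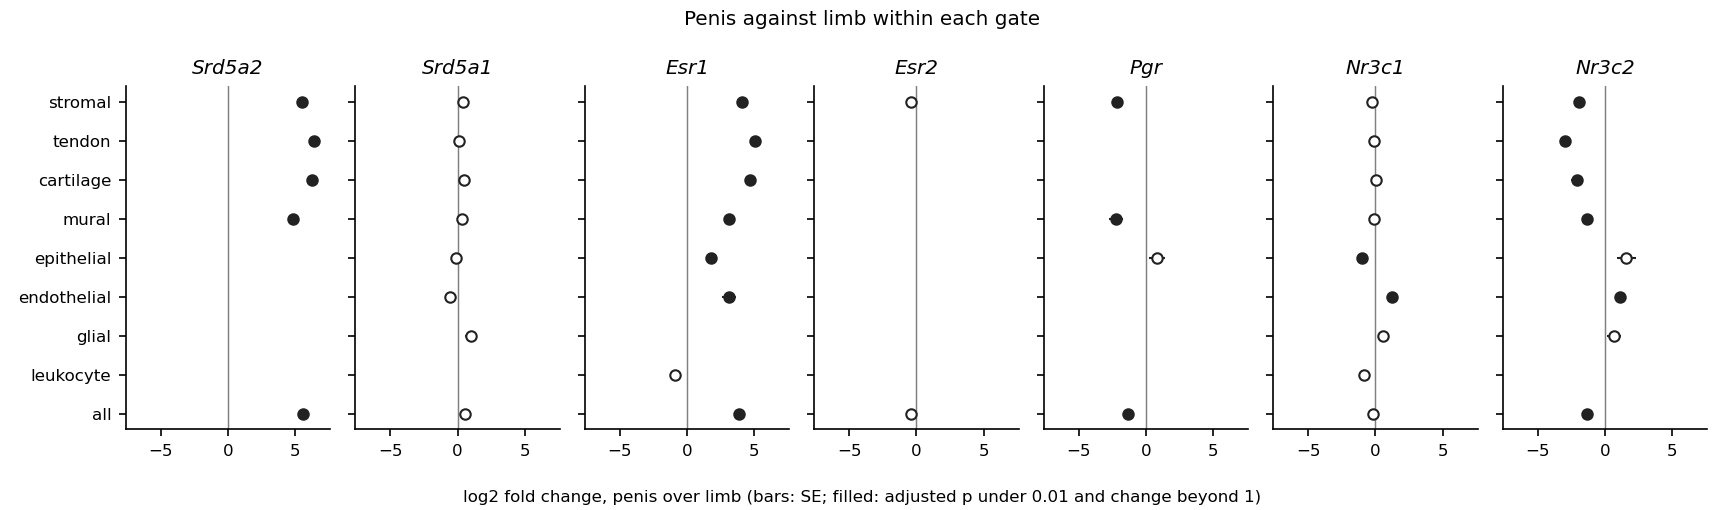
Log2 fold difference between penis and limb for each gene and gate, from edgeR, with bars of 1 standard error; filled points were called. Srd5a2 and Esr1 sit far to the right in stromal, mural, cartilage and tendon cells, at up to 6.38, and Nr3c2 sits to the left in the same gates, down to -2.99.

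Srd5a2 was a gene of penis mesenchyme. It was at 87.5, 92.3 and 85.4 CPM in the stromal gate of Penis replicates 1, 2 and 3 and at 1.77 and 1.95 CPM in forelimb and hindlimb. The penis mean was 88.4 ± 3.57 CPM (SD, n = 3), 47.5 times the limb mean, and no limb library came near a penis library. The fitted log2 difference was 5.54 ± 0.0919 (SE, edgeR adjusted p = 2.38e-09). In penis 32.3 to 35.4% of stromal cells held a Srd5a2 UMI, in limb 0.918 to 1.17%, and with every cell thinned to 2000 UMIs the shares were 13.3 to 14.4% and 0.333 to 0.388%. Its UMIs were spread unevenly over the stromal cells of penis, with up to 17, 23 and 17 in a cell and with 58.7 to 62.0% of them in the 10% of cells that held most.

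Tendon cells came next for Srd5a2 in penis, at 79.6, 77.3 and 67.5 CPM, then bone cells at 27.4, 67.5 and 53.2 CPM, mural cells (smooth muscle and pericytes) at 37.0, 46.1 and 40.1 CPM and cartilage cells at 31.5, 20.8 and 18.4 CPM. Among these neighbours the bone and mural gates overlapped, and the tendon and bone gates all but met (lowest tendon library 67.49 CPM, highest bone library 67.47 CPM). The bone gate held 22 to 27 cells per library, so its place in the order is loose. In limb, tendon cells were at 1.15 and 0.596 CPM, mural cells at 1.08 and 1.79 CPM and cartilage cells at 0.284 and 0.310 CPM. The log2 differences between penis and limb were 6.38 ± 0.243 (SE) in tendon (edgeR adjusted p = 5.90e-11), 6.25 ± 0.409 in cartilage (1.16e-07) and 4.81 ± 0.313 in mural cells (2.88e-08). In the fits at 2000 UMIs per cell, cells were gated again on the thinned counts and fewer passed. There Srd5a2 was too sparse to be tested in these 3 gates.

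Outside mesenchyme Srd5a2 was sparse. Epithelial cells of penis had 14 UMIs in all, at 1.05, 3.03 and 0.960 CPM, and those of limb had 0. The share of epithelial cells with a UMI was 0.855 to 2.49%, against 0.442 to 0.806% of penis leukocytes, which should lack it, and 0.275 to 1.37% of penis endothelial cells. By share of cells the epithelial range lay above that of leukocytes and overlapped that of endothelial cells. By CPM it overlapped both, with leukocytes at 0.563 to 0.995 CPM and endothelial cells at 0.292 to 1.63 CPM. Free RNA was not measured, and whether the epithelial UMIs came from epithelial cells was not tested. Epithelial cells were lower than stromal cells of the same penis library by a log2 difference of -5.43 ± 0.192 (SE, edgeR adjusted p = 7.85e-21), endothelial cells by -6.49, leukocytes by -6.64 and glial cells by -6.97.

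Srd5a1, the more widely expressed reductase, had another pattern. It was highest in epithelial cells, at 33.0, 26.3 and 28.3 CPM in penis and 25.2 and 37.0 CPM in forelimb and hindlimb. In the stromal gate it was at 8.11, 7.96 and 7.19 CPM in penis and 5.55 and 5.75 CPM in limb. Epithelial cells of penis were thus above stromal cells in each library, by a log2 difference of 2.12 ± 0.150 (SE, edgeR adjusted p = 2.04e-13). Penis and limb overlapped in epithelial cells (log2 difference -0.11 ± 0.235, edgeR adjusted p = 0.787), a sign that turned when the hindlimb was left out (0.20). In stromal cells every penis library was above both limb libraries, but the log2 difference of 0.43 ± 0.0974 stayed under the fold limit (edgeR adjusted p = 0.00343). The share of epithelial cells with a UMI at 2000 UMIs per cell, 4.49 to 7.09% in penis and 4.70 to 6.58% in limb, overlapped as the CPM did.

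Glial cells held the next highest Srd5a1 level in penis, at 16.0, 19.5 and 12.8 CPM, and were above stromal cells by a log2 difference of 1.10 ± 0.225 (SE, edgeR adjusted p = 0.000159). Without Penis replicate 2 that difference was 0.93 (edgeR adjusted p = 0.0115) and was not called, nor was it at 2000 UMIs per cell (edgeR adjusted p = 0.0215). The glial gate of limb was at 9.85 and 6.15 CPM, below every penis library, with a log2 difference of 1.01 ± 0.422 that did not pass (edgeR adjusted p = 0.0705). Leukocytes were lowest, at 3.98, 2.25 and 0.711 CPM in penis, lower than stromal cells by -1.45 ± 0.392 (edgeR adjusted p = 0.00222, and 0.0195 without Penis replicate 3). That call was also lost with 1 marker fewer (edgeR adjusted p = 0.0263), at 2000 UMIs per cell (0.108) and by DESeq2 (adjusted p = 0.0164).

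**Figure D2:**
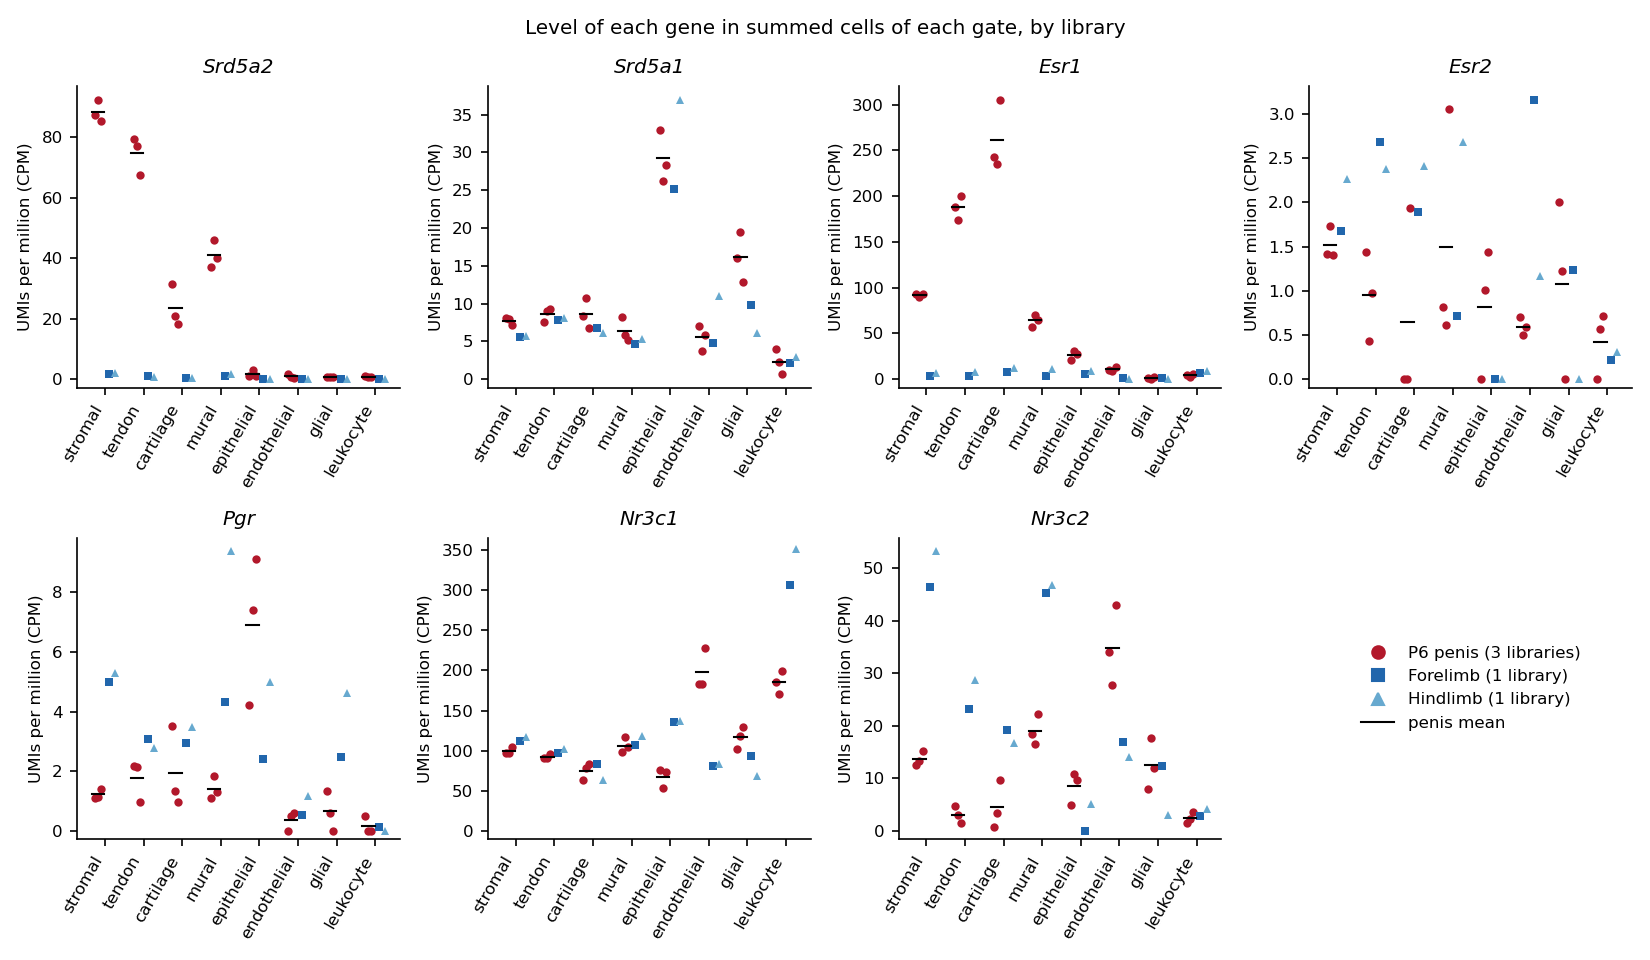
Level of each gene (CPM, linear axis) in each gate and library; each point is 1 library, coloured by tissue, and the black line is the penis mean. Srd5a2 and Esr1 separate by tissue in mesenchymal gates, Srd5a1 is highest in epithelial cells of all 5 libraries, and Nr3c1 is present in every gate shown.

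Esr1 was, like Srd5a2, a gene of penis mesenchyme, but its highest levels were in the skeletal gates. Cartilage cells of penis were at 242.5, 235 and 305 CPM, tendon cells at 189, 174 and 200.5 CPM, and stromal cells at 92.8, 89.9 and 93.1 CPM. In limb, cartilage cells were at 8.13 and 12 CPM, tendon cells at 3.64 and 7.95 CPM and stromal cells at 3.97 and 6.80 CPM. In these 3 gates both limb libraries were far below every penis library. The log2 differences were 4.68 ± 0.168 (SE) in cartilage (edgeR adjusted p = 9.57e-10), 5.04 ± 0.184 in tendon (4.31e-11) and 4.06 ± 0.178 in stromal cells (2.14e-07). In stromal cells 31.8 to 33.4% of penis cells and 1.92 to 3.4% of limb cells held a UMI, or 13.0 to 13.5% and 0.849 to 1.30% at 2000 UMIs per cell.

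Among neighbours in the penis order for Esr1, cartilage was above tendon with no overlap, the tendon, bone and stromal ranges ran into each other through the small bone gate, and mural cells were below stromal cells. Against stromal cells of the same library, cartilage cells were higher by a log2 difference of 1.5 ± 0.0754 (SE, edgeR adjusted p = 9.36e-28) and tendon cells by 1.12 ± 0.0595 (edgeR adjusted p = 1.27e-10). Both calls depended on how cells were gated. With 1 marker fewer the differences were 0.07 and 0.79. The largest stromal gate of penis then held 2873 cells in place of 4288, and the smallest tendon gate 357 in place of 193. At 2000 UMIs per cell the differences were 0.81 and 0.01. With 1 marker more the tendon difference was 0.55, also inside the fold limit. Mural cells of penis were at 57.5, 70.6 and 65.0 CPM and of limb at 3.24 and 11.6 CPM, a log2 difference of 3.16 ± 0.287 (edgeR adjusted p = 8.31e-07).

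Esr1 was also detected outside mesenchyme. Epithelial cells were at 21.1, 31 and 27.4 CPM in penis and at 6.0 and 9.0 CPM in limb, where the counts were 14 UMIs in all. The groups did not overlap, and the log2 difference of 1.79 ± 0.354 was called (SE, edgeR adjusted p = 0.000548), though at 2000 UMIs per cell Esr1 was too sparse there to be tested. Endothelial cells were at 10.0, 8.73 and 13.5 CPM in penis and at 1.58 and 0.583 CPM in limb (log2 difference 3.16 ± 0.525, edgeR adjusted p = 5.15e-05), the limb values resting on 4 UMIs. Leukocytes went the other way, with 4.48, 2.81 and 5.69 CPM in penis and 6.51 and 9.32 CPM in limb, a log2 difference of -0.93 ± 0.345 that did not pass (edgeR adjusted p = 0.0349). In penis 11 to 16.2% of epithelial cells held an Esr1 UMI, above the 2.21 to 3.23% of leukocytes. Glial cells had 5 UMIs in penis and 1 in limb.

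Esr2 was sparse in all libraries. The stromal gate held 62, 74 and 46 Esr2 UMIs in penis and 122 and 173 in limb, or 1.42, 1.73 and 1.41 CPM against 1.67 and 2.27 CPM. The ranges overlapped and the log2 difference of -0.40 ± 0.187 was not called (SE, edgeR adjusted p = 0.0854). No neighbours in the penis order of gates were apart beyond their spread. With 1.16 to 1.40% of stromal cells holding a UMI in penis, the depth allows no finer statement about this receptor.

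Pgr was low in stromal cells and lower in penis than in limb. The stromal gate held 48, 49 and 46 UMIs in penis and 364 and 404 in limb, or 1.10, 1.14 and 1.41 CPM against 4.99 and 5.30 CPM. The groups did not overlap and the log2 difference was -2.12 ± 0.134 (SE, edgeR adjusted p = 1.68e-06). In mural cells penis was at 1.10, 1.83 and 1.31 CPM and limb at 4.32 and 9.38 CPM (log2 difference -2.22 ± 0.509, edgeR adjusted p = 0.00276), on 13 and 33 UMIs. That call was lost without Penis replicate 1 (edgeR adjusted p = 0.0113) and without the hindlimb (log2 difference -1.63, edgeR adjusted p = 0.0899), and DESeq2 did not make it (adjusted p = 0.0117). With 1 marker more and at 2000 UMIs per cell Pgr was too sparse there to be tested.

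In epithelial cells of penis Pgr was higher than in any other gate there, at 4.22, 7.41 and 9.12 CPM. The epithelial to stromal log2 difference in penis was 2.68 ± 0.348 (SE, edgeR adjusted p = 7.81e-08), on 53 epithelial UMIs in 3.85 to 4.71% of cells. Epithelial cells of limb were at 2.40 and 5.00 CPM on 7 UMIs, and overlapped penis (log2 difference 0.82 ± 0.595, edgeR adjusted p = 0.345).

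Nr3c1 was detected in each of the 8 gates compared in every library. Stromal cells were at 97.3, 97.4 and 104 CPM in penis and at 112 and 117 CPM in limb. Both limb libraries were above every penis library, but by a log2 difference of only -0.23 ± 0.0511 (SE, edgeR adjusted p = 0.00312), under the fold limit. The share of stromal cells with a UMI ran the opposite way as deposited, 52.7 to 53.7% in the deeper penis libraries against 42.5 to 45.8% in limb, and followed the CPM once cells were thinned to 2000 UMIs (16.8 to 18.1% against 19.1 to 19.3%). In cartilage, tendon and mural cells the log2 differences were 0.05, -0.08 and -0.10, none called, and each changed sign under at least 1 other setting. At 2000 UMIs per cell, in the fewer cells that passed the mural gate on thinned counts, the mural difference was 1.73 and was called (edgeR adjusted p = 0.00324).

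Nr3c1 did differ in endothelial and epithelial cells, in opposite directions. Endothelial cells were at 184, 183 and 228 CPM in penis and at 80.6 and 82.7 CPM in limb, with no overlap and a log2 difference of 1.21 ± 0.113 (SE, edgeR adjusted p = 1.77e-08). Epithelial cells were at 75.2, 53.2 and 73.5 CPM in penis and at 136 and 137 CPM in limb, again with no overlap (log2 difference -1.03 ± 0.155, edgeR adjusted p = 2.47e-05). The epithelial value stood at the fold limit and fell inside it, at -0.90, without Penis replicate 2 (edgeR adjusted p = 3.58e-05). It was also inside it with no filter on low counts (-0.96), with no cell filter (-0.90) and with 1 marker fewer (-0.97). Leukocytes were at 185, 171 and 199 CPM in penis and at 307 and 351 CPM in limb (log2 difference -0.86 ± 0.106, edgeR adjusted p = 1.78e-05, not called). Within penis, endothelial cells and leukocytes overlapped at the top of the order and were above stromal cells by log2 differences of 1.05 ± 0.0508 (edgeR adjusted p = 1.17e-10, and 0.97 without Penis replicate 3) and 1.09 ± 0.0752 (5.09e-12). The endothelial value was 0.97 at 2000 UMIs per cell, and with no filter on low counts the values were 0.99 and 0.97, inside the fold limit.

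Nr3c2 was lower in the mesenchyme of penis and higher in its endothelium. Stromal cells were at 12.5, 13.2 and 15.2 CPM in penis and at 46.4 and 53.2 CPM in limb, a log2 difference of -1.90 ± 0.0833 (SE, edgeR adjusted p = 2.14e-07). Tendon cells were at 4.68, 2.99 and 1.47 CPM against 23.2 and 28.8 CPM (-2.99 ± 0.282, edgeR adjusted p = 7.91e-07). No penis library reached a limb library in either gate. At 2000 UMIs per cell Nr3c2 was too sparse to be tested in tendon and cartilage. Cartilage cells were at 0.701, 3.35 and 9.69 CPM against 19.1 and 16.8 CPM (-2.10 ± 0.421, edgeR adjusted p = 0.00137, and 0.0139 both without Penis replicate 2 and with 1 marker more). Mural cells were at 18.3, 16.5 and 22.3 CPM against 45.4 and 46.9 CPM (-1.32 ± 0.164, edgeR adjusted p = 1.85e-05). At 2000 UMIs per cell that difference had the other sign (0.29, edgeR adjusted p = 0.832). The mural gate set on the thinned counts held 47 to 142 cells per library, against 190 to 310 at full depth. With 1 marker more the mural difference was not called (edgeR adjusted p = 0.0490). In stromal cells 7.63 to 8.09% held a UMI in penis and 15.8 to 18.3% in limb, and single cells of the limb stromal gate held up to 38 and 25 Nr3c2 UMIs.

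Endothelial cells were at 34.0, 27.7 and 43.0 CPM for Nr3c2 in penis and at 16.9 and 14.0 CPM in limb. Every penis library was above both limb libraries, with a log2 difference of 1.09 ± 0.222 (SE, edgeR adjusted p = 0.000447). It was inside the fold limit with 1 marker more (0.75), without Penis replicate 3 (0.95) and without the hindlimb (0.96, edgeR adjusted p = 0.0182). Within penis, endothelial cells were the highest gate and were above stromal cells by 1.40 ± 0.112 (edgeR adjusted p = 3.89e-08), with 16.4 to 22.3% of cells holding a UMI. Epithelial cells were at 4.92, 10.8 and 9.60 CPM in penis and at 0 and 5.00 CPM in limb, on 66 and 5 UMIs (log2 difference 1.60 ± 0.703, edgeR adjusted p = 0.0994). The 0 of 167 forelimb epithelial cells allows a share of up to 1.80% of cells with a UMI.

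Every other gate with a fit between tissues was also set against stromal cells of the same penis library, and the small bone gate was not. In the epithelial gate 4 of 7 were called, Pgr and Srd5a1 higher and Esr1 and Srd5a2 lower, against 35% of all 17268 genes tested. Esr1 was lower by a log2 difference of -1.58 ± 0.105 (SE, edgeR adjusted p = 3.99e-14). Nr3c1 (-0.37), Nr3c2 (-0.49) and Esr2 (-0.79) were not called, and Nr3c2 was 0.57 with no cell filter. The median over all genes was itself -0.13 in that comparison. The same comparison called 4 of 7 in endothelial cells (33.7% of all genes), 5 of 7 in leukocytes (43.9%), 3 of 7 in glial cells (26.4%), 3 of 7 in cartilage (11.6%), 2 of 7 in tendon (7.53%) and 1 of 7 in mural cells (4.5%). In mural cells that gene was Srd5a2, lower by -1.08 ± 0.0780 (edgeR adjusted p = 1.07e-09), and in cartilage it was lower by -1.88 ± 0.136 (edgeR adjusted p = 1.17e-19). In tendon it was not called (-0.14 ± 0.0709, edgeR adjusted p = 0.158), whereas Nr3c2 was lower there (-1.98 ± 0.279, edgeR adjusted p = 2.89e-05) and in cartilage (-1.73 ± 0.342, edgeR adjusted p = 3.14e-05). These calls depended on the gating or depth. The mural Srd5a2 call was lost with no cell filter (-0.78) and with 1 marker fewer (-0.75), and the cartilage one at 2000 UMIs per cell (edgeR adjusted p = 0.0112). In tendon Srd5a2 was 0.52 with 1 marker fewer and was called lower with 1 marker more, just past the fold limit, and at 2000 UMIs (-2.50). The Nr3c2 calls were lost with 1 marker fewer (-0.75 in tendon and -0.89 in cartilage) and at 2000 UMIs (edgeR adjusted p = 0.375 and 0.473).

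**Figure D3:**
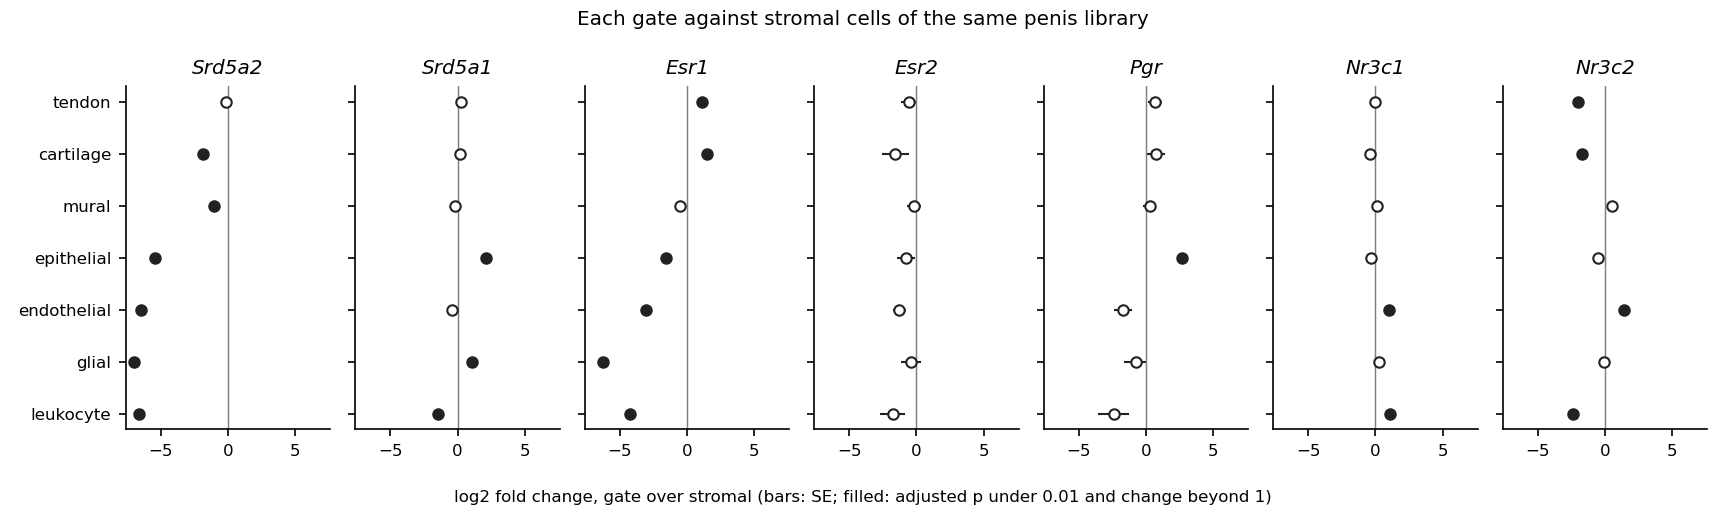
Log2 fold difference between each gate and the stromal gate of the same penis library, from edgeR, with bars of 1 standard error; filled points were called. Pgr at 2.68 and Srd5a1 at 2.12 are to the right in epithelial cells, Esr1 is to the right in cartilage and tendon, and Srd5a2 is to the left in every gate shown, least so in tendon.

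Whether the epithelial to stromal difference was the same in penis and limb was tested as an interaction over both gates of all 5 libraries, which called 3 of the 7 genes and 8.75% of all genes. For Nr3c2 the epithelial to stromal difference was higher in penis by 3.57 ± 0.512 on the log2 scale (SE, edgeR adjusted p = 2.61e-10), for Pgr by 2.98 ± 0.628 (3.80e-05), and for Esr1 it was lower, by -2.20 ± 0.488 (0.000101). At 2000 UMIs per cell the Nr3c2 value was 1.19 (edgeR adjusted p = 0.453) and neither it nor that of Esr1 was called. The Esr1 call was also lost without the hindlimb (edgeR adjusted p = 0.0403), with 1 marker fewer per gate (0.0376) and with no replicate block (0.0358). The same test with endothelial in place of epithelial cells called Nr3c2 (3.01 ± 0.210, edgeR adjusted p = 3.02e-10) and Nr3c1 (1.46 ± 0.0983, edgeR adjusted p = 1.71e-10), 2 of the 7, against 7.82% of all genes. Both interactions share the stromal sums, in which Nr3c2 itself differed by -1.90 between tissues, so they are not independent.

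The share of each gene's UMIs that came from stromal cells depended on the cell filter. In kept cells stromal cells held 86.2 ± 0.271% of Srd5a2 UMIs in penis (SD, n = 3), 66.7 ± 1.52% of Esr1, 71.5 ± 4.18% of Esr2, 58.6 ± 1.17% of Nr3c1, 57.9 ± 3.5% of Nr3c2, 57.2 ± 0.439% of Srd5a1 and 49.7 ± 1.56% of Pgr. Stromal cells held 62.9 to 64.0% of all UMIs in penis, so Srd5a2, Esr1 and Esr2 were above that share in every library and Nr3c1, Nr3c2, Srd5a1 and Pgr below it. In limb, where they held 51.1 to 51.2% of all UMIs, the stromal share was 75.0 to 75.3% for Srd5a2, 48.0 to 49.7% for Esr1, 57.5 to 58.4% for Esr2 and 50.05 to 51.1% for Nr3c1. It was 69.3 to 72.1% for Nr3c2, 51.8 to 52.1% for Srd5a1 and 68.0 to 72.7% for Pgr. In kept cells Nr3c2 and Pgr had a larger stromal share in both limb libraries than in every penis library. With no cell filter the stromal shares in the penis libraries were 79.8 to 80.4% for Srd5a2, 55.8 to 58.9% for Esr1, 55.2 to 66.98% for Esr2, 46.1 to 47.2% for Nr3c1, 39.6 to 44.8% for Nr3c2, 35.6 to 38.6% for Srd5a1 and 25.5 to 29.0% for Pgr. Limb then had the larger stromal share also for Srd5a1 (50.1% in both limb libraries) and Nr3c1 (48.9 and 50.3%). Mixed cells of penis then held 33.7 to 39.8% of Pgr UMIs (11.1 to 14.6% in kept cells) and 24.8 to 27.5% of Srd5a1 UMIs (6.90 to 9.14%). The stromal share of all UMIs with no cell filter is not given here, so these shares cannot be told apart from a change over all genes.

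Epithelial cells held 18.4 ± 5.11% of Pgr UMIs and 14.2 ± 0.949% of Srd5a1 UMIs in penis, although they held 4.04 to 4.36% of all UMIs. The epithelial share was 0.108 ± 0.0758% for Srd5a2, 1.28 ± 0.299% for Esr1, 2.45 ± 2.23% for Esr2, 2.60 ± 0.391% for Nr3c1 and 2.34 ± 0.841% for Nr3c2, each on average below the share of all UMIs. With no cell filter the epithelial shares in penis were 17.7 to 27.3% for Pgr, 18.6 to 20.3% for Srd5a1, 3.21 to 10.9% for Nr3c2, 4.10 to 4.97% for Nr3c1 and 1.87 to 2.54% for Esr1. The epithelial share of all UMIs in that setting is not given here. In limb epithelial cells held 0.584 to 0.673% of all UMIs. There they held 2.70 to 4.37% of Srd5a1 UMIs, 0.399 to 0.842% of Pgr, 0.834 to 0.858% of Esr1, 0.691 to 0.782% of Nr3c1, up to 0.0889% of Nr3c2 and none of Srd5a2 or Esr2. Epithelial cells held a larger share of all UMIs in every penis library than in both limb libraries, and so they did of the UMIs of each member except Esr2, with 0 of its UMIs in epithelial cells of Penis replicate 1. These shares depend on how many cells of each kind were captured.

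**Figure D4:**
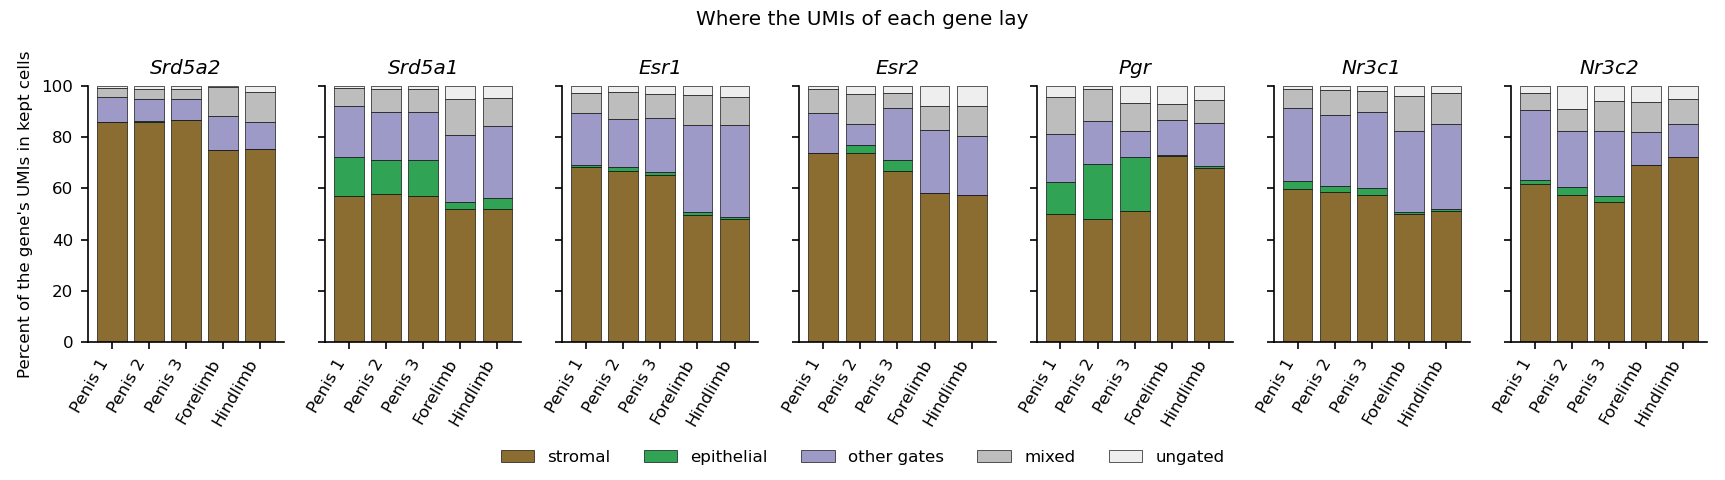
Percent of each gene's UMIs found in the epithelial, stromal and other gates of each library. Pgr and Srd5a1 have the largest epithelial parts in penis, 18.4% and 14.2% on average, and Srd5a2 the largest stromal part, 86.2%.

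Epithelial cells were divided further by keratinocyte differentiation markers (suprabasal cells, 77 to 116 per penis library) and by markers of simple or urethral epithelium (16 to 18 cells), with 137 to 227 cells in neither set. Median UMIs per cell in penis were 11854.5 to 14219 in suprabasal cells and 9955 to 13773 in simple or urethral cells. In neither set they were 2597 to 3647. Each set required UMIs of at least 3 of its markers, so cells could fall in neither for lack of depth. The 2 to 3 cells per penis library with both kinds of marker are left out below, of which those of Penis replicate 1 held 10 Esr1 UMIs. Nr3c2 stood apart here. Simple or urethral cells of penis were at 21.4, 34.8 and 90.4 CPM on 5, 7 and 16 UMIs. Suprabasal cells were at 2.42, 2.01 and 0 CPM, and the cells in neither set at 5.48, 15.4 and 5.00 CPM. The first set was above both others in each library, and 18.8, 18.8 and 33.3% of its cells held a UMI. The 13 and 24 simple or urethral cells of forelimb and hindlimb had no Nr3c2 UMI, which at their depth allows up to 90.3 and 44.6 CPM, so a difference between tissues was not detectable.

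Pgr was at 5.45, 8.05 and 10.3 CPM in suprabasal cells, at 3.29, 8.11 and 10.01 CPM in cells of neither set, and had no UMI in simple or urethral cells of penis, where 3 counts would be 12.9 to 16.9 CPM. Srd5a1 was alike in the 3 sets of cells, at 30.9, 28.2 and 23.3 CPM in suprabasal cells, 34.3, 29.8 and 33.9 CPM in simple or urethral cells and 35.1, 23.5 and 32.5 CPM in neither. Esr1 was at 15.1, 20.8 and 24.3 CPM in suprabasal cells and at 20.8, 47.0 and 31.3 CPM in cells of neither set, higher in the latter in each library. Nr3c1 was the reverse, at 83.0, 65.1 and 81.2 CPM in suprabasal cells and 61.3, 41.4 and 71.3 CPM in neither. These sets were small and shared a library, and no test was run on them.

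**Figure D5:**
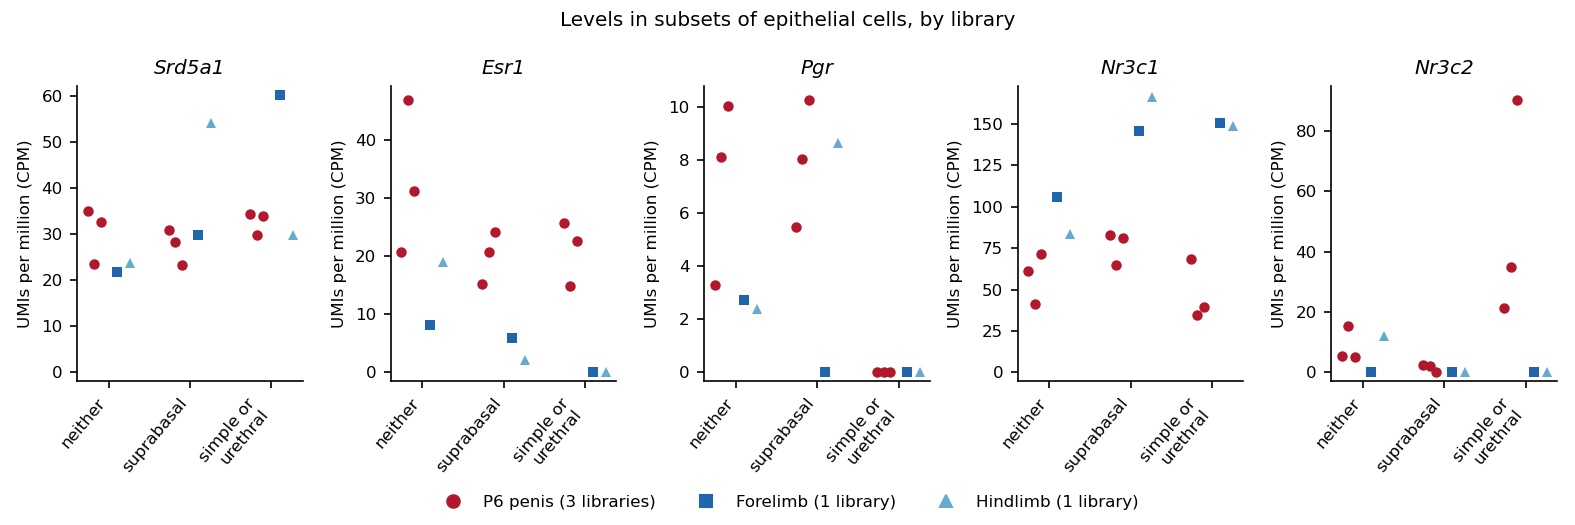
Level of Srd5a1, Esr1, Pgr, Nr3c1 and Nr3c2 (CPM) in 3 sets of epithelial cells by library. Nr3c2 is highest in simple or urethral cells of penis (21.4 to 90.4 CPM), Pgr is detected in suprabasal and undivided cells, and Srd5a1 overlaps among the sets.

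Within penis stroma, cells with a Srd5a2 UMI were compared with cells without one after each was thinned to 5000 UMIs, as a description with cells of 1 library sharing their source. There were 953, 1021 and 764 cells with a Srd5a2 UMI. Esr1 was detected in 28.5, 27.2 and 28.9% of them and in 21.9, 22.3 and 22.9% of the other cells. Nr3c1 was detected in 35.3, 33.4 and 36.8% against 35.4, 35.4 and 37.7%, and Nr3c2 in 5.98, 6.56 and 6.81% against 4.20, 3.91 and 5.07%. Pgr was detected in 0.42, 0.29 and 0.13% against 0.53, 0.56 and 0.66%, and Srd5a1 in 2.20, 3.23 and 4.06% against 3.99, 3.24 and 3.37%. Esr2 was in 0.84, 1.18 and 0.52% against 0.49, 0.59 and 0.54%. As deposited, Nr3c1 ran the other way, in 56.7, 54.8 and 53.95% against 52.2, 52.4 and 52.1%. Pgr and Esr2 rest on few cells, and no test was run on any of these shares. The transcription factor Sim1 was detected in 39.7, 39.7 and 35.5% of cells with Srd5a2 against 21.6, 22.1 and 21.2%, and Pi16, a marker of adventitial fibroblasts, in 5.56, 4.70 and 5.24% against 14.8, 15.2 and 13.8%. Sim1 and Pi16 were chosen from earlier results of these data, so they give no neutral scale for the members.

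Other genes of steroid metabolism also differed in the stromal gate. Of the 19 listed genes in the files, 14 were tested between penis and limb, 4 were called higher and 6 lower (71.4% of those tested, beside 25.3% of all genes), with a median log2 difference of -0.69 beside 0.00458 over all genes. Hsd11b2, which inactivates glucocorticoids and so shields the mineralocorticoid receptor, was at 47.3, 45.8 and 49.3 CPM in penis and at 2.97 and 2.11 CPM in limb (4.20 ± 0.126, SE, edgeR adjusted p = 3.07e-08). In penis it was lower in epithelial than in stromal cells, with 8 epithelial UMIs in all (epithelial to stromal log2 difference -5.33 ± 0.261, edgeR adjusted p = 2.69e-17). Hsd17b1, which makes estradiol from estrone, was called higher (2.78 ± 0.460) on 52 UMIs against 9. Akr1c14 and Akr1c18, enzymes that reduce steroids at the 3 and 20 positions, were called lower, on 6 UMIs against 121 and on 1 against 82.

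In epithelial cells 6 genes of that list were tested between penis and limb and 1 was called (beside 11.9% of all genes), Hsd17b7, lower in penis (-1.31 ± 0.305, edgeR adjusted p = 0.00253), with a list median of -0.04 beside 0.02 over all genes. DESeq2 did not call it. Between epithelial and stromal cells of penis, 9 were tested, 1 was called higher and 3 lower (44.4% of those tested, beside 35% of all genes, median -0.37). Hsd17b12 was the one higher in epithelial cells (1.44 ± 0.0842, edgeR adjusted p = 2.05e-15). Hsd11b1, which regenerates glucocorticoids, had 463 UMIs in stromal cells and 0 in epithelial cells, at least 10.2-fold lower with 3 counts over the 3 libraries as the floor.

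The 12 chaperones and coregulators of the receptors mostly stayed inside the fold limit. Nrip1, a corepressor, was called higher in penis in stromal cells (212, 210.5 and 224 CPM against 76.4 and 81.7, log2 difference 1.42 ± 0.0555, edgeR adjusted p = 1.15e-07) and was the 1 gene of the 12 called there, beside 25.3% of all genes. In epithelial cells Nrip1 was called higher (1.26 ± 0.144) and the chaperone Hsp90aa1 lower (-1.14 ± 0.120), beside 11.9% of all genes. The list's median differences were -0.24 in stromal and 0.07 in epithelial cells. None of the 12 was called between epithelial and stromal cells of penis by edgeR or DESeq2, with an unadjusted p under 0.05 in edgeR for 5 higher and 1 lower.

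Of the 10 genes known to respond to glucocorticoids, 3 were called higher in penis stromal cells and none lower, 30% of the list beside 25.3% of all genes, with a median of 0.89. Mt2 and Mt1, the metallothioneins, were among them, with log2 differences of 2.31 ± 0.0966 (SE, edgeR adjusted p = 1.67e-07) and 1.67 ± 0.0842 (4.62e-07). In epithelial cells 5 of the 10 were called higher by edgeR, 3 by DESeq2, and none lower (beside 11.9% of all genes by edgeR, median 0.90), led by the kinase Sgk1 (34.1, 27.3 and 41.3 CPM against 8.40 and 5.00, log2 difference 2.35 ± 0.347, edgeR adjusted p = 1.84e-05) and Mt2 (2.17 ± 0.152). Nr3c1 itself, as given above, was called lower in those cells. Between epithelial and stromal cells 2 were called higher, Mt2 (2.96) and Mt1 (2.85), and 2 lower, Klf9 (-1.98) and Errfi1 (-1.01), 40% of the list beside 35% of all genes, with a list median of -0.34.

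Of the 12 genes of estrogen and progesterone response or related receptors, 1 was called higher in penis stromal cells and 5 lower (50% of the list, beside 25.3% of all genes, median -0.42). Igfbp4, which binds insulin-like growth factors, was at 1433, 1279 and 1290 CPM in penis and at 474 and 435 CPM in limb (1.53 ± 0.0863, SE, edgeR adjusted p = 8.96e-07). Areg, a ligand of the epidermal growth factor receptor, and Esrrb, an orphan receptor, were called lower, by -3.48 ± 0.194 and -2.31 ± 0.284. In epithelial cells none of the 9 tested was called between tissues by edgeR or DESeq2 (median -0.05), with an unadjusted p under 0.05 in edgeR for 2 higher and 4 lower. Between epithelial and stromal cells of penis 4 of 10 were called higher and 1 lower (beside 35% of all genes, median 0.49), with Areg at 6.32 ± 0.319 and Wnt4 at 4.53 ± 0.0694 highest and Igfbp4 lower at -3.69 ± 0.0678.

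The genes most like each member in their pattern over gates and libraries were found by Pearson correlation of log2(CPM + 1). It was taken over 42 sums of a gate in a library, among 16551 genes, and takes no account of how high a gene is. It is a description in which sums of a library share their depth and preparation. For Srd5a2 they were Angpt4 (r = 0.95), Gm43782 (0.95) and Alx4 (0.95), and for Esr1 Thrb (0.92), Ostn (0.90) and Agt (0.89). For Srd5a1 they were Plxnb1 (0.86), Hadh (0.85) and Ptprf (0.85), and for Pgr Tenm2 (0.85), Spred2 (0.82) and Cep164 (0.80). For Nr3c1 they were Ostf1 (0.85), Dusp5 (0.84) and AI413582 (0.82), and for Nr3c2 Lrrc7 (0.78), Nrxn3 (0.75) and Il17rd (0.75). Srd5a2 and Esr1 had the closest companions and Nr3c2 the least close, and Esr2 was too low for the measure. Companions did not always peak where the member did. Pgr was highest in mural cells of hindlimb, and its companions in epithelial cells of Penis replicate 3. Nr3c2 was highest in stromal cells of hindlimb, but Lrrc7 and Nrxn3 in endothelial cells of Penis replicate 3.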

How the data were processed

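Cells of mouse penis, forelimb and hindlimb were captured with the 10X Single Cell 3′ v3.1 kit, and the authors counted UMIs with Cell Ranger 7.0.0 on mm10. The deposited matrices hold raw UMI counts per gene and cell. Whether intronic reads were counted is not given in the sources used here, and neither is how reads shared by overlapping genes were treated. The study's limits were read as genes per cell: 500 to 6000 in penis, 100 to 9000 in forelimb and 100 to 9500 in hindlimb, with at most 5, 10 and 10% mitochondrial UMIs and a novelty of at least 0.8. Intervals and floors cover counting error only.

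For each library, the UMIs of a gate's cells were added up. In the reported fits each sum had at least 20 cells. That minimum was not applied in the other settings, and the smallest cartilage gate at 2000 UMIs held 19. The sums were tested with edgeR 4.0.16 in R 4.3.3 (TMM, its filter on low counts, quasi-likelihood test, Benjamini-Hochberg over all genes tested). Each SE given with an edgeR value, also in the figures, was worked back from the test. It is the size of the log2 difference divided by the square root of the F statistic, and is rough where counts are few. Comparisons within penis and the interactions had library as a block, since both sums of a library come from 1 dissociation. Deviations of the epithelial and stromal sums of the same number correlated at 0.179, 0.107 and 0.243 over 8911 genes. DESeq2 1.42.0, another scaling, no filter on low counts, no cell filter, other gate minimums, thinning to 2000 UMIs and leaving out each library were alternatives. Shares and fits at 2000 UMIs leave out shallower cells. The shares keep the gates set at full depth. In the fits cells were gated again on the thinned counts, so the cells of a gate changed along with the depth. The fits were tested on simulated counts.

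The members, gates, lists and the rule for named genes (all members, and from each list the 2 called genes with the largest change in each direction) were chosen with earlier results of these data known. Sums of gates other than epithelial against stromal, the endothelial interaction and the thinning to 5000 UMIs were added after seeing the data, and Sim1 and Pi16 were chosen from earlier results. Of the listed genes, Sts was not matched.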

Additional observations from a re-analysis of the deposited data

Results flagged for a closer look

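The epithelial to stromal difference of 3 members was unlike in penis and limb by a test of the interaction itself. For Nr3c2 it was higher in penis by a log2 value of 3.57 ± 0.512 (SE, edgeR adjusted p = 2.61e-10). Stromal cells were at 12.5 to 15.2 CPM in penis and 46.4 to 53.2 CPM in limb, and epithelial cells at 4.92 to 10.8 CPM in penis and 0 to 5.00 CPM in limb, on 5 limb UMIs. At 2000 UMIs per cell the value was 1.19 (edgeR adjusted p = 0.453). For Pgr it was higher by 2.98 ± 0.628 (edgeR adjusted p = 3.80e-05), on 7 epithelial UMIs in limb. For Esr1 it was lower in penis by -2.20 ± 0.488 (edgeR adjusted p = 0.000101), on 14 epithelial UMIs in limb, and without the hindlimb its adjusted p was 0.0403.

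The endothelial to stromal difference of 2 members was also unlike in both tissues, in a comparison added after seeing the data. For Nr3c2 it was higher in penis by 3.01 ± 0.210 (SE, edgeR adjusted p = 3.02e-10), with endothelial cells at 27.7 to 43.0 CPM in penis and 14.0 to 16.9 CPM in limb. For Nr3c1 it was higher by 1.46 ± 0.0983 (edgeR adjusted p = 1.71e-10), with endothelial cells at 183 to 228 CPM in penis and 80.6 to 82.7 CPM in limb. Median UMIs per endothelial cell were 8476 to 9027 in penis and 4990 to 5505 in limb. With every cell thinned to 2000 UMIs and gated again, the differences were 3.09 for Nr3c2 (edgeR adjusted p = 3.84e-14) and 1.49 for Nr3c1 (4.72e-17).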

How the results depend on the processing

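Of 1183 log2 differences of members recomputed under other settings, 1097 kept their direction and their side of the limits, 41 kept the direction and lost the call, 5 gained one and 40 changed sign. The 4 calls in stromal cells between tissues and the 4 between epithelial and stromal cells of penis were each counted in all settings run, the fit with no replicate block included. The number of members called in epithelial cells between tissues went from 2 to 1 with no filter on low counts, with no cell filter and with 1 marker fewer, where Nr3c1 was inside the fold limit, and at 2000 UMIs per cell, where Esr1 was too sparse to be tested. It was 1 to 2 when a library was left out. Against stromal cells of penis, mural cells went from 1 call to 0 with no cell filter, 0 with 1 marker fewer and 2 at 2000 UMIs. Cartilage went from 3 to 1 and 0 with 1 marker fewer and at 2000 UMIs, and tendon from 2 to 0 and 1. In the other gates between tissues 13 calls became 7 at 2000 UMIs, where fewer genes were tested, and 11 to 13 when a library was left out. The interaction of tissue and epithelial gate had 3 calls, 1 at 2000 UMIs, 2 to 3 when a library was left out, and 2 with no replicate block, where Esr1 was at -2.23 (edgeR adjusted p = 0.0358). The block changed no other call of a member. Of the 7 calls at 2000 UMIs in the other gates between tissues, Nr3c1 in mural cells was not among the 13. The causes were not tested.

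Of the members called in the reported fit, Nr3c2 in mural cells between tissues changed sign, to 0.29 at 2000 UMIs. The other 39 changes of sign were in values that had not been called. Between tissues, Srd5a1 in epithelial cells was 0.045 with no cell filter and -0.33 to 0.20 when a library was left out, and in endothelial cells -1.04 to 0.15. Nr3c1 was 0.25 with 1 marker more and 1.73 at 2000 UMIs in mural cells, -0.023 with no filter on low counts and -0.17 to 0.27 when a library was left out in cartilage, and 0.0069 and 0.48 with 1 marker more and at 2000 UMIs in tendon. Against stromal cells of penis, Nr3c2 in epithelial cells was 0.57 with no cell filter and 0.037 with 1 marker fewer. In mural cells Pgr was -0.46 with 1 marker more and -0.014 to 0.39 without a library, Esr2 -1.08 to 0.31 without a library, and with 1 marker fewer Srd5a1 was 0.30 and Nr3c1 -0.0047. In glial cells Nr3c2 was 0.18 with no cell filter, 0.59 with 1 marker more, 0.41 at 2000 UMIs and -0.46 to 0.15 without a library, and Esr2 0.16 with 1 marker fewer and -1.16 to 0.038 without a library. In cartilage Pgr was -0.084 to 1.09 without a library, and Srd5a1 -0.82 with 1 marker fewer and -0.016 to 0.25 without a library. In tendon Pgr was -2.06 with 1 marker more, Esr2 0.45 and 0.44 with 1 marker fewer and more, and with 1 fewer Srd5a2 was 0.52 and Nr3c1 0.056. In the interactions Srd5a2 was -2.51 (epithelial) and -2.55 (endothelial) by DESeq2 and -3.90 (endothelial) with no cell filter, and Esr1 (endothelial) 5.52 at 2000 UMIs and -1.81 to 0.42 without a library.

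At 2000 UMIs per cell, where fewer genes were tested, calls over all genes between tissues went from 5083 to 3222 in stromal, 1381 to 591 in epithelial, 1545 to 910 in endothelial, 2038 to 433 in mural, 2688 to 1373 in leukocytes, 1596 to 679 in glial, 1945 to 179 in cartilage and 2010 to 383 in tendon cells. Against stromal cells they went from 770 to 1375 in mural, 4549 to 2773 in glial, 1970 to 473 in cartilage and 1269 to 494 in tendon cells, and in the interactions from 1662 to 626 and 1489 to 889. With 1 marker fewer they were 1058 in glial cells between tissues and 294, 1142 and 447 in mural, cartilage and tendon cells against stromal cells. With 1 marker more they were 1348 in mural cells between tissues and 1554 against stromal cells. With 1 limb library left the lone library is assumed to vary like the others. Esr2, and Pgr and Srd5a2 outside their main gates, rest on few UMIs, which limits what could be detected.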
